A study of Mus musculus with 6 samples.

Results

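Macrophages of the thymus take up the thymocytes that die there, and a small set of genes marks them among the cells of the organ. The genes described here are Csf1r, Csf1, Adgre1, Maf, Cd68, Cd163, Mrc1, Ms4a7 and Lyz2, chosen by symbol from the mRNA table, and all 9 were found there among 21954 genes. Csf1r is the receptor through which the growth factor Csf1 keeps macrophages alive and dividing, and Maf is a transcription factor of mature macrophages. The products of Adgre1, Cd163, Mrc1 and Ms4a7 sit on the macrophage surface, that of Cd68 in the membrane of late endosomes and lysosomes, and that of Lyz2 is a secreted antibacterial enzyme. Some of these genes are also used outside macrophages: stromal cells make Csf1, neutrophils and monocytes make Lyz2, lymphatic endothelium makes Mrc1 and subsets of T cells make Maf.

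Polyadenylated RNA was sequenced from whole thymus of wild-type C57BL mice aged 5 weeks. The irradiated group had 3 libraries from mice given 6 Gy of X-rays and killed 24 h later, and the control group had 3 libraries from mice given no radiation. The labels do not say which part of the body was exposed, nor do they tie each library to 1 animal, so a p-value here reflects only how far these libraries vary, which may be technical. Values are FPKM, which divides the fragments of a gene by its length and by the size of the library. The estimated depth was 24.4 to 25.6 M fragments in irradiated libraries and 21.9 to 23.2 M fragments in controls.

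The libraries differed in more than the genes described here. The 14 thymocyte markers, which check the labelled tissue, summed to 195 to 295 FPKM in irradiated thymus and to 2699 to 3089 FPKM in controls. FPKM is a share of each library, so in this bulk tissue fewer cells of a type and less RNA per cell cannot be told apart, and a higher share of macrophage RNA cannot be told apart from a smaller share of thymocyte RNA. The irradiated libraries also differed among themselves. The 10 airway and lung markers summed to 122, 3568 and 105 FPKM in irradiated replicates 1, 2 and 3, against 12.5 to 16.1 FPKM in controls. The 10 fat cell markers summed to 191, 2803 and 1207 FPKM in irradiated replicates 1, 2 and 3, against 43.7 to 82.8 FPKM in controls. The 10 skeletal muscle markers summed to 7.10, 171 and 44.9 FPKM in irradiated replicates 1, 2 and 3, against 6.74 to 7.93 FPKM in controls. No listed gene of these 3 sets was at 0 in all irradiated libraries, and 1 airway gene was at 0 in all controls.

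All 9 macrophage identity genes were higher in irradiated thymus, and for each of them the lowest irradiated library stood above the highest control. Their log2 fold changes, irradiated minus control on log2(FPKM + 0.1), ran from 1.87 for Cd163 to 3.65 for Cd68, with a median of 2.57. The background was high: at a Benjamini-Hochberg adjusted p under 0.05 in limma, 42.4% of the 14001 genes tested were higher and 20.9% lower, and in 46.1% the irradiated libraries all stood above the controls. The count called higher depended on the fit. It was 3501 of 14001 genes after quantile normalization and 4371 of 13894 after median-ratio scaling. Without irradiated replicate 1 it was 6730 of 13945. The median log2 fold change of all genes tested was 0.40. All 9 genes passed the filter of 0.5 FPKM on average, and the members stood between the 76.8th and 97.6th percentile of the log2 fold changes of all genes.

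**Figure D1:**
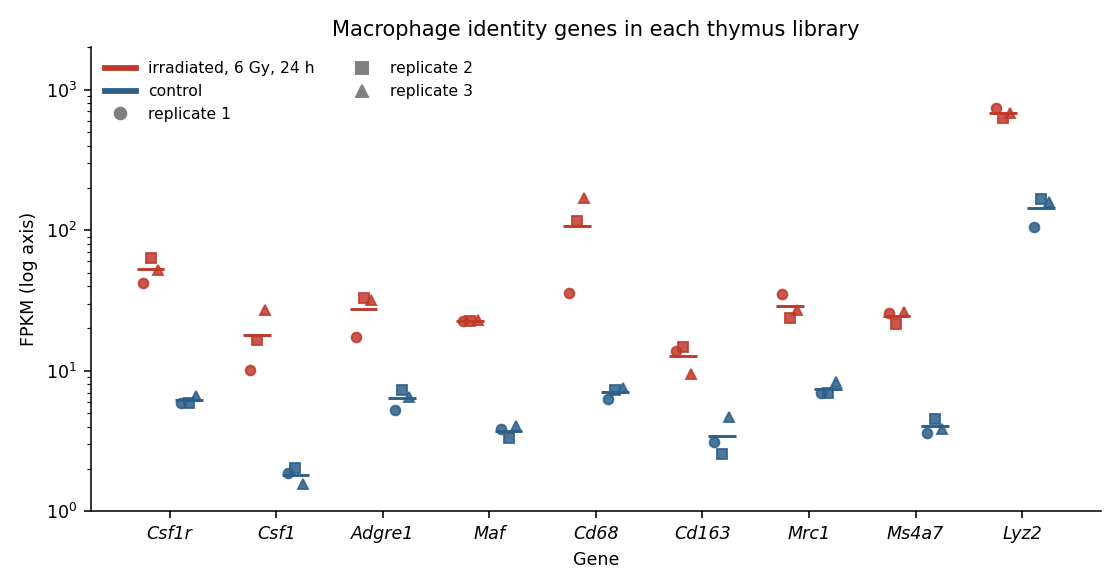
FPKM of each macrophage identity gene on a log axis, with irradiated libraries in red to the left of controls in blue, 1 symbol per replicate and a bar at the group mean. No red point falls to the level of a blue one in any of the 9 genes; Cd68 and Csf1 have the widest red spread and Maf the narrowest.

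The receptor and its ligand were both higher. Csf1r (ENSMUSG00000024621, chromosome 18, 61105572 to 61132149, plus strand) measured 42.4, 63.7 and 52.4 FPKM in irradiated replicates 1, 2 and 3, against 5.93, 5.90 and 6.64 FPKM in control replicates 1, 2 and 3. The irradiated libraries lay within 1.5 times of each other, and the lowest of them was 6.39 times the highest control. The mean was 52.8 ± 10.6 FPKM in irradiated thymus and 6.16 ± 0.417 FPKM in controls (SD, n = 3 each), a fold of 8.58 and a log2 change of 3.06 ± 0.17 (SE; adjusted p in limma = 5.42e-05). Csf1 (ENSMUSG00000014599, chromosome 3, 107741048 to 107760469, minus strand) measured 10.2, 16.5 and 27.1 FPKM in irradiated replicates 1, 2 and 3, against 1.87, 2.02 and 1.56 FPKM in controls. The irradiated libraries of Csf1 spread over 2.66 times, with replicate 3 highest, but stayed above the controls. Its mean was 17.9 ± 8.53 FPKM in irradiated thymus and 1.82 ± 0.231 FPKM in controls (SD, n = 3 each), with a log2 change of 3.13 ± 0.34 (SE; adjusted p in limma = 0.000323) that came to 2.50 after quantile normalization. In FPKM the receptor stood above its ligand in all 6 libraries, with Csf1 at 0.241 to 0.518 of Csf1r in irradiated libraries and at 0.235 to 0.342 in controls.

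The other ligand of the receptor, Il34, is made by epithelial and neural cells and also rose. It measured 8.0, 5.05 and 4.87 FPKM in irradiated replicates 1, 2 and 3, against 1.17, 2.23 and 1.99 FPKM in controls, a log2 change of 1.69 ± 0.31 (SE; adjusted p in limma = 0.00291). After quantile normalization it no longer passed, at 0.81 and a limma adjusted p of 0.0863. Il34 was highest in irradiated replicate 1, where Csf1 was lowest of the 3. The ratio of Csf1 to Il34 was 1.28, 3.28 and 5.57 in irradiated replicates 1, 2 and 3 and 1.59, 0.906 and 0.786 in controls, so the groups overlapped.

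The largest rise of the 9 genes was that of Cd68 (ENSMUSG00000018774, chromosome 11, 69664213 to 69666153, minus strand), a heavily glycosylated protein related to the lysosomal LAMP proteins. It measured 35.6, 116 and 169 FPKM in irradiated replicates 1, 2 and 3, against 6.27, 7.26 and 7.51 FPKM in controls. Irradiated replicate 1 was far below the others and still 4.74 times the highest control. The mean was 107 ± 67.0 FPKM in irradiated thymus and 7.01 ± 0.654 FPKM in controls (SD, n = 3 each), a fold of 15.2. The log2 change was 3.65 ± 0.52 (SE; adjusted p in limma = 0.000985), or 4.30 without irradiated replicate 1. Cd68 lies 783 bases from Eif4a1 on the same strand, a translation factor gene that was at 73.4, 83.5 and 146 FPKM in irradiated replicates and 159 to 168 FPKM in controls. Lyz2 (ENSMUSG00000069516, chromosome 10, 117277331 to 117282321, minus strand) was the most abundant of the genes, at 741, 626 and 677 FPKM in irradiated replicates, against 105, 167 and 159 FPKM in controls. Its irradiated libraries agreed within 1.18 times and its controls within 1.59 times. The log2 change was 2.27 ± 0.26 (SE; adjusted p in limma = 0.000369).

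Lyz2 has a neighbouring copy, Lyz1, 5476 bases away on the same strand, which Paneth cells of the gut are known to make. Of the 50-base windows of the Lyz2 transcript, 15.4% also occur in a transcript of Lyz1, so reads lying within those stretches cannot be assigned to 1 gene. Lyz1 is the less certain of the pair, because Lyz2 stood far above it in every library. The part of Lyz2 reads in the value of Lyz1 and in its change was not tested. Lyz1 measured 6.47, 17.7 and 11.7 FPKM in irradiated replicates, against 3.22, 4.57 and 4.77 FPKM in controls, a log2 change of 1.40 (limma adjusted p = 0.0128). That call was lost after quantile normalization and without control replicate 1, at limma adjusted p of 0.0813 and 0.0511. Lyz2 was 35.3 to 114 times Lyz1 in irradiated libraries and 32.7 to 36.5 times Lyz1 in controls.

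The bases before the transcription start are shown for Cd68, which rose most, for Lyz2 beside its copy Lyz1, and for Mrc1, which held the most matches to the PU.1-type motif. PU.1, encoded by Spi1, is the factor that sets up the myeloid lineage and binds purine-rich ETS sites, and Maf proteins bind MARE sites. The windows come from RefSeq on GRCm38.p6 and were found for Csf1, Cd68, Cd163, Mrc1, Ms4a7 and Lyz2 but not for Csf1r, Adgre1 or Maf. Of each, the 250 bases before the start are printed 5′ to 3′, and capitals mark every match on either strand to GAGGAA (PU.1 type), GGAAGT (ETS type), TGCTGA (part of a MARE) or TGAGTCA (the core shared by AP-1 and MARE sites). The RefSeq start of Lyz2 and of Mrc1 lies inside the gene coordinates given for them here. Part of each of these windows is therefore within the gene. Matches on the other strand read as TTCCTC and ACTTCC, and the first motif can overlap the second, as the third can overlap the fourth.
Cd68, chr11:69666171-69666420, minus strand: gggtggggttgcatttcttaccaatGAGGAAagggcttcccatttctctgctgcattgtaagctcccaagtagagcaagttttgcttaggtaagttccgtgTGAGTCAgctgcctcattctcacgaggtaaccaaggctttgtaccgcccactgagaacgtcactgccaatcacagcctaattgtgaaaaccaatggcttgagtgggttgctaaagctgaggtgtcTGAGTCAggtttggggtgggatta
Lyz2, chr10:117282273-117282522, minus strand: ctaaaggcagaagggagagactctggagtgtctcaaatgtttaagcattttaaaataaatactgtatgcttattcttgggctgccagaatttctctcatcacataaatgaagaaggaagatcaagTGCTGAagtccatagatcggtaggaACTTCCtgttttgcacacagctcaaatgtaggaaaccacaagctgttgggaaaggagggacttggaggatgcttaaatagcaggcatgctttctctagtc
Lyz1, chr10:117292869-117293118, minus strand: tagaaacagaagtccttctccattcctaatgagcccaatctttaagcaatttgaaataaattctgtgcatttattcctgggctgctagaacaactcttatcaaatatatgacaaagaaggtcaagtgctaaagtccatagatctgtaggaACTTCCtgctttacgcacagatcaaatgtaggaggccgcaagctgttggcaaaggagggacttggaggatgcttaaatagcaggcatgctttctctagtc
Mrc1, chr2:14229164-14229413, plus strand: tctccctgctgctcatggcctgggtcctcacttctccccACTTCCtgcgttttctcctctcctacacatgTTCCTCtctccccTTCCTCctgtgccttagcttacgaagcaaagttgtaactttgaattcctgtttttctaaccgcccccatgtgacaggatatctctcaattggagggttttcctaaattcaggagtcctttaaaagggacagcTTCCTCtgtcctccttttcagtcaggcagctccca

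Among the 7 windows of these 6 genes, GAGGAA was found in 2 (Cd68 and Mrc1), GGAAGT in 3 (Mrc1, Lyz2 and 1 window of Ms4a7), TGCTGA in 1 (Lyz2) and TGAGTCA in 1 (Cd68). Over 32536 different windows of all genes, the shares with a match were 23.4%, 19.8%, 16.1% and 4.45% in the same order. Cd68 held TGAGTCA at 2 places, starting 149 and 24 bases before the start, and the Mrc1 window held GAGGAA at 3. Lyz2 and Lyz1 had the same base at 152 of 250 positions (60.8%) without gaps. Both held the GGAAGT match 100 bases before the RefSeq start, while TGCTGA was found in Lyz2 and not in Lyz1. A match is a run of letters, not evidence of binding.

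The transcription factor Maf (ENSMUSG00000055435, chromosome 8, 115682942 to 115707794, minus strand) had the most even values of the 9 genes among the irradiated libraries. It measured 22.5, 22.5 and 22.8 FPKM in irradiated replicates, against 3.83, 3.34 and 4.05 FPKM in controls. Its irradiated libraries lay within 1.02 times of each other, while Cd68 in the same libraries spread over 4.74 times. The mean was 22.6 ± 0.193 FPKM in irradiated thymus and 3.74 ± 0.361 FPKM in controls (SD, n = 3 each), a log2 change of 2.57 ± 0.14 (SE; adjusted p in limma = 5.3e-05). The small Maf proteins lack an activation domain: Mafg rose by 1.33, while Mafk was at -0.01 and Maff at 0.52 and did not pass. Mafk passed as lower after median-ratio scaling, at -0.47, and Maff turned to -0.45 after quantile normalization.

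Since some T cells also use Maf, a list of genes of such cells was set beside it. Of its 11 genes 10 were in the table and 7 passed the filter, of which 2 rose and 3 fell, with a median log2 fold change of -0.37. Il17a was at 0.0694 FPKM or less in every library, and Icos was at 3.31 to 3.41 FPKM in irradiated libraries and 3.93 to 5.17 FPKM in controls. The lowest log2 fold change on the list was -3.37. Il17rb was lower, at -2.28 (limma adjusted p = 0.00164). Blk was lower as well, at -0.85 (limma adjusted p = 0.0194), a call that was lost without control replicate 1 or 3. Zbtb16, a factor of innate-like T cells, rose by 2.78, or by 2.02 after quantile normalization. Sox13 rose by 0.66 (limma adjusted p = 0.0315), a call that was lost after median-ratio scaling (0.21) and equal scaling of summed FPKM (0.57), with the replicate block, with no filter, and without any 1 library other than irradiated replicate 1, and its direction turned to -0.40 after quantile normalization. Icos passed as lower after median-ratio scaling and quantile normalization, at -0.82 and -1.24. The summed level of the list was 23.8 to 41.1 FPKM in irradiated libraries and 89.9 to 124 FPKM in controls. The part of T cells in the value of Maf was not tested.

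Among the surface receptors, Adgre1 is the classical surface marker of mouse macrophages (ENSMUSG00000004730, chromosome 17, 57358691 to 57483527, plus strand). It measured 17.5, 32.8 and 31.6 FPKM in irradiated replicates, against 5.24, 7.31 and 6.51 FPKM in controls, with replicate 1 lowest and no overlap. The log2 change was 2.05 ± 0.27 (SE; adjusted p in limma = 0.000682). Ms4a7, a membrane-spanning protein of the MS4A family (ENSMUSG00000024672, chromosome 19, 11321039 to 11336144, minus strand), measured 25.8, 21.6 and 26.2 FPKM in irradiated replicates, against 3.63, 4.55 and 3.86 FPKM in controls. It differed little within either group, and its log2 fold change was 2.58 ± 0.15 (SE; adjusted p in limma = 5.75e-05).

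Mrc1 and Cd163 had the smallest log2 fold changes of the 9 genes with all libraries. Without irradiated replicate 3, however, Adgre1 was below both, at 1.91 against 1.96 for Mrc1 and 2.06 for Cd163. Mrc1, the mannose receptor (ENSMUSG00000026712, chromosome 2, 14229392 to 14332057, plus strand), measured 35.0, 23.8 and 27.1 FPKM in irradiated replicates, against 6.98, 6.90 and 8.29 FPKM in controls. Here replicate 1 was the highest of the irradiated libraries, and the log2 change was 1.93 ± 0.18 (SE; adjusted p in limma = 0.00018). Cd163, the receptor for haemoglobin bound to haptoglobin (ENSMUSG00000008845, chromosome 6, 124304656 to 124330527, plus strand), measured 13.9, 14.7 and 9.49 FPKM in irradiated replicates, against 3.10, 2.57 and 4.70 FPKM in controls. Its lowest irradiated library was 2.02 times its highest control, the narrowest gap of the 9 genes, and the log2 change was 1.87 ± 0.27 (SE; adjusted p in limma = 0.00108).

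Because lymphatic endothelium also makes Mrc1, its markers were read beside it. Prox1, which defines that endothelium, was at 0.494, 1.38 and 0.517 FPKM in irradiated replicates and 0.0488 to 0.0806 FPKM in controls, too low to be tested. Of 11 measured rows on the list of lymphatic and sinusoidal endothelium, 10 were tested and 6 rose, beside 42.4% of all genes tested. The summed level was 471 to 1059 FPKM in irradiated libraries and 87.9 to 112 FPKM in controls, most of it from Ccl21a. Ccl21a is listed under 2 gene IDs whose values are uncertain because the copies are nearly identical. The sum therefore mostly follows Ccl21a and is not a measure of lymphatic endothelium. In irradiated replicates 1, 2 and 3 the list summed to 471, 857 and 1059 FPKM. The part of this endothelium in the value of Mrc1 was not tested.

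**Figure D2:**
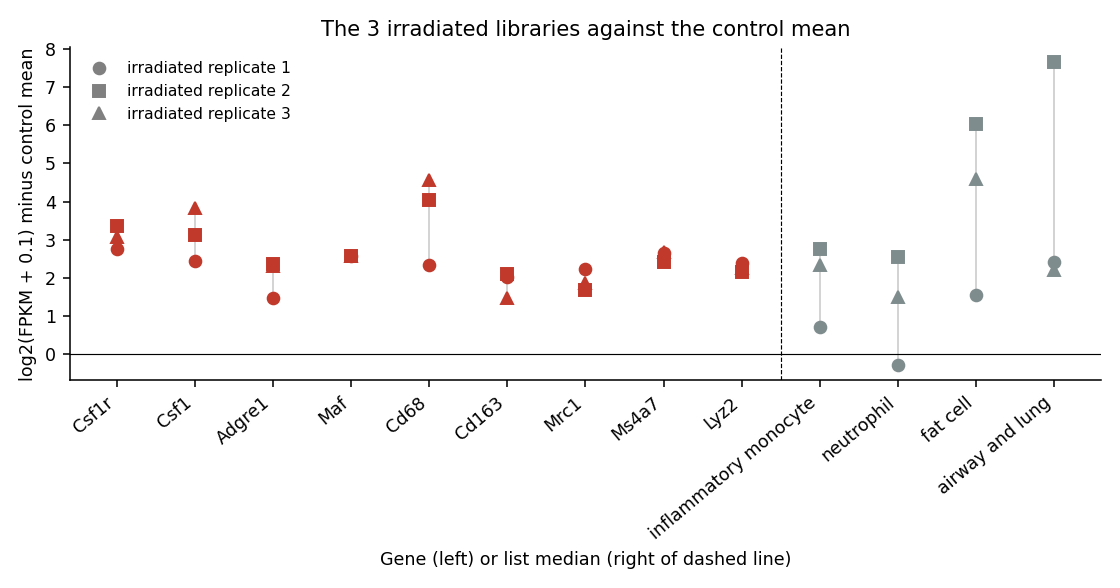
Difference of each irradiated library from the control mean on the log2(FPKM + 0.1) scale, for the 9 genes (red, left) and for the median of 4 marker lists (grey, right of the dashed line). Maf, Ms4a7 and Lyz2 are nearly level across the 3 libraries, and Cd68, Csf1 and Adgre1 are lowest in replicate 1. Cd68 runs from 2.33 to 4.57. The list medians run from 2.19 to 7.64 for airway genes and from 1.55 to 6.03 for fat cell genes. Those of neutrophil genes run from -0.29 to 2.55 and those of inflammatory monocyte genes from 0.70 to 2.76.

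The order of the irradiated libraries thus differed between genes. Replicate 1 was the lowest of the irradiated libraries for Csf1r, Csf1, Adgre1, Cd68 and, by a narrow margin, Maf, and the highest for Mrc1 and Lyz2. On the log2(FPKM + 0.1) scale, Cd68 stood 2.33, 4.04 and 4.57 above the control mean in replicates 1, 2 and 3, while Mrc1 stood 2.24, 1.68 and 1.87 above it. The medians of the inflammatory monocyte list over the control mean were 0.70, 2.76 and 2.35 in the same libraries, and those of the neutrophil list were -0.29, 2.55 and 1.48. The part of these cells, or of the airway, fat and muscle markers given above, in the values of the 9 genes was not tested. Without irradiated replicate 2, which held most of the airway signal, all 9 genes were still called. Their log2 fold changes then ran from 1.75 for Cd163 to 3.45 for Cd68. Irradiated replicates 1 and 3 still had airway sums of 122 and 105 FPKM and fat cell sums of 191 and 1207 FPKM. These sums were above those of every control, so this fit cannot separate the part of such cells.

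To see whether the genes kept their proportions to each other, each library was also set against its own Csf1r value and the whole table was fitted again. Mrc1, Cd163 and Adgre1 fell relative to Csf1r. Mrc1 was at 0.826, 0.374 and 0.518 of Csf1r in irradiated replicates and at 1.18, 1.17 and 1.25 in controls, a log2 change of -1.13 ± 0.29 (SE; adjusted p in limma = 0.00465). Cd163 was at 0.327, 0.231 and 0.181 of Csf1r in irradiated replicates and at 0.523, 0.435 and 0.708 in controls, a change of -1.20 ± 0.29 (limma adjusted p = 0.00351). Adgre1 was at 0.412, 0.516 and 0.604 of Csf1r in irradiated replicates and at 0.884, 1.24 and 0.980 in controls, a change of -1.02 ± 0.23 (limma adjusted p = 0.00256). Most genes did so: 80.9% of the 14000 others fell relative to Csf1r and 0.807% rose, and in 0.979% all irradiated libraries stood above the controls.

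No difference from Csf1r passed for the other 5 genes with all libraries. For Maf and Lyz2, all irradiated ratios to Csf1r nonetheless lay below those of the controls. Maf was at 0.354 to 0.529 in irradiated libraries and 0.566 to 0.646 in controls, and Lyz2 at 9.83 to 17.5 and 17.7 to 28.3. The change relative to Csf1r was 0.07 for Csf1 (95% interval -0.67 to 0.81), 0.58 for Cd68 (-0.37 to 1.54), -0.48 for Ms4a7 (-1.08 to 0.12), -0.49 for Maf (-1.0 to 0.01) and -0.79 for Lyz2 (-1.59 to 0.0011), so differences of these sizes were not settled. Without irradiated replicate 1, 4 of these 5 did pass: Cd68 was higher relative to Csf1r by 1.09 (limma adjusted p = 0.0017), and Ms4a7, Maf and Lyz2 were lower by -0.67, -0.64 and -1.0 (limma adjusted p = 0.0198, 0.0107 and 0.0102). With a pseudocount of 1 Maf passed as well, at -0.57.

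**Figure D3:**
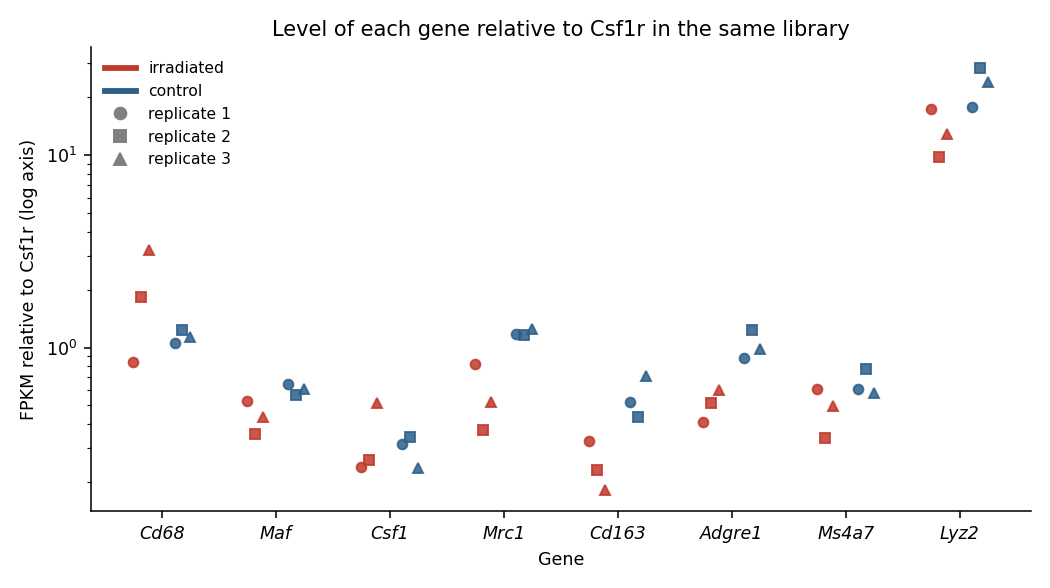
FPKM of 8 genes divided by FPKM of Csf1r in the same library, on a log axis, with irradiated libraries in red to the left of controls in blue. Mrc1, Cd163, Adgre1, Maf and Lyz2 lie lower in all 3 irradiated libraries than in any control, Lyz2 by a narrow margin. Cd68 spreads from 0.839 to 3.22 in irradiated libraries around control ratios of 1.06 to 1.23.

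Reads at the Csf1r locus call for care. The gene Hmgxb3 overlaps Csf1r on the opposite strand, 17.7% of the 50-base windows of the longest Csf1r transcript also lie in a transcript of another gene, most often Hmgxb3, and the sources used here do not say whether the counting used strand. Reads of the shared stretch can therefore not be told apart. Hmgxb3 measured 10.6, 11.1 and 11.4 FPKM in irradiated replicates and 12.2, 12.9 and 13.1 FPKM in controls, a log2 change of -0.20 that did not pass. It stood at 0.174 to 0.251 of Csf1r in irradiated libraries and at 1.97 to 2.18 in controls. For Maf the corresponding share was 6.16%, with the antisense gene Gm15655, for Cd163 it was 0.137%, and Csf1, Adgre1, Cd68, Mrc1 and Ms4a7 had 0 such windows.

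The authors' deposited table gives its own comparison for the same genes, and it called all 9 as higher, against 32.5% of the 19142 genes with an adjusted p in that table. The log2 fold changes in the authors' deposited table ran from 1.73 for Mrc1 (adjusted p = 1.72e-07) to 3.72 for Cd68 (adjusted p = 3.37e-13). The authors' deposited table gives Csf1r 2.88, with the smallest adjusted p of the 9 genes (3.06e-18).

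**Figure D4:**
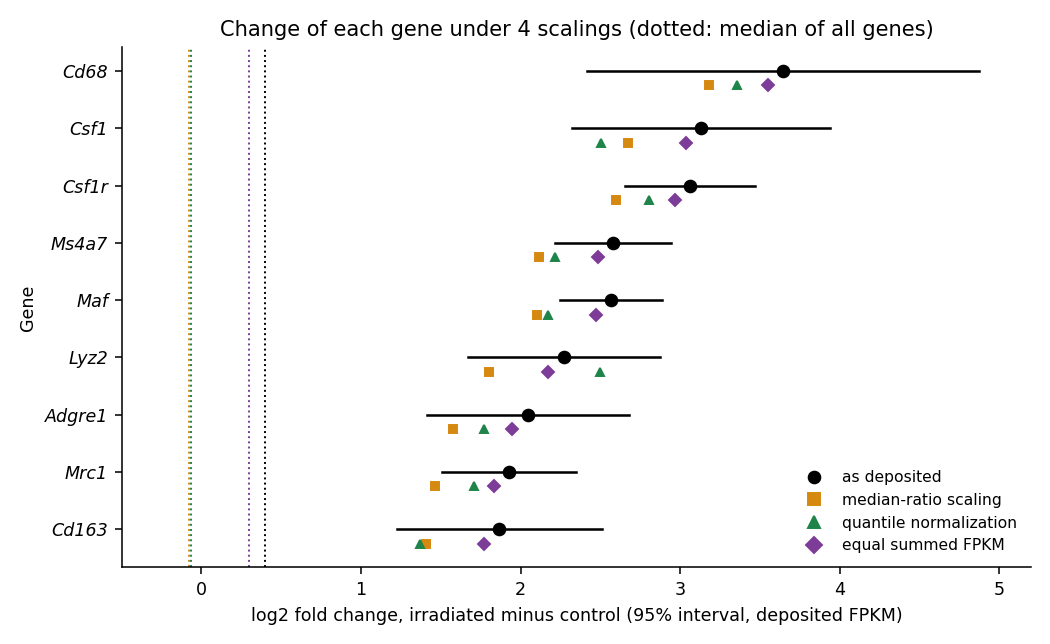
Log2 fold change of each gene, irradiated minus control. Black points with bars give the deposited FPKM with the 95% interval, coloured symbols give 3 other scalings between libraries, and dotted lines give the median of all genes under each. The points of all 9 genes lie right of the dotted lines, from 1.37 for Cd163 after quantile normalization to 3.65 for Cd68 as deposited.

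The lncRNA table holds noncoding transcripts of 6 of these genes, measured in the same libraries. They overlap the genes, and how shared reads were assigned is not given. Their values can therefore hold reads of the mRNA and are not an independent readout. Of 19247 transcripts tested there, 8.26% were higher and 24.6% lower, and in 12.0% the irradiated libraries all stood above the controls. With transcripts summed to genes, 15.8% of 9421 were higher and 30.1% lower, 18.9% had all irradiated libraries above the controls, and Ms4a7 and Cd163 passed as higher while Cd68 did not (limma adjusted p = 0.0817). A retained-intron transcript of Ms4a7 (ENSMUST00000162785) rose, at 5.66, 4.88 and 5.75 FPKM in irradiated replicates against 0.314, 0.804 and 0.214 FPKM in controls. Its log2 change was 3.49 ± 0.40 (SE; adjusted p in limma = 0.00187). Cd163 had 2 such transcripts, and both rose. The retained-intron transcript ENSMUST00000203210 measured 4.54, 4.26 and 2.66 FPKM in irradiated replicates and 0.887, 0.573 and 1.65 FPKM in controls, a log2 change of 1.86 ± 0.40 (SE; adjusted p in limma = 0.0139). The other, newly assembled on the minus strand within the gene (chromosome 6, 124316699 to 124321765), measured 3.52, 2.37 and 3.10 FPKM in irradiated replicates and 1.17, 0.877 and 1.17 FPKM in controls. Its log2 change was 1.39 ± 0.26 (SE; adjusted p in limma = 0.00936), but since strand use is not given, its reads cannot be told apart from those of Cd163 itself. In the authors' deposited table neither transcript of Cd163 passed, with an adjusted p of 0.079 for the retained intron and 0.206 for the other, while that of Ms4a7 did, at 0.000501, where 4.87% of 41029 transcripts were higher. The authors' deposited table also called the retained introns of Csf1 (adjusted p = 0.0144) and Csf1r (0.0225) and the antisense gene Gm15655 (0.0105) as higher, but not the retained intron of Mrc1 (0.112), the Cd68 transcript (0.0584) or the processed transcript of Csf1r (0.641).

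A processed transcript of Cd68 (ENSMUST00000154124) was at 0.612, 2.66 and 10.6 FPKM in irradiated replicates and 0.611, 0.821 and 0.438 FPKM in controls, so replicate 1 fell within the controls. Its log2 fold change of 1.97 ± 0.87 did not pass (SE; adjusted p in limma = 0.113), and passed without irradiated replicate 1, at 2.95 (limma adjusted p = 0.0109). The retained introns of Csf1, Csf1r and Mrc1 averaged 0.596, 0.293 and 0.732 FPKM in irradiated thymus and 0.0584, 0.0255 and 0.184 FPKM in controls, below the filter for a test. Gm15655, antisense to Maf, was at 0.419, 0.148 and 1.14 FPKM in irradiated replicates and is listed at 0 in all 3 controls.

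Relatives of the 9 genes were read beside them. Of 31 relatives 28 were tested, 19 of them rose and the median log2 fold change was 1.37. None fell with all libraries, but 1 fell after median-ratio scaling, 2 after quantile normalization and 1 without irradiated replicate 1. Within the receptor tyrosine kinase class of Csf1r, Pdgfra and Pdgfrb of stromal cells rose by 2.98 ± 0.21 and 3.16 ± 0.43 (SE), or by 2.35 for both after quantile normalization. Flt3 of early progenitors and dendritic cells was at 0.79 and did not pass, passed without irradiated replicate 1 at 1.25, and turned to -0.23 after quantile normalization. Kit was at 0.67 (limma adjusted p = 0.0298). The direction of Kit turned to -0.09 after quantile normalization, its call was lost after median-ratio scaling at 0.21, and it was lost without control replicate 1 or 2 or irradiated replicate 2 or 3, at limma adjusted p of 0.0546 to 0.1. Beside Adgre1, its relatives Adgre5 and Adgre4 were at 0.34 and -0.24 and did not pass. Adgre5 passed without irradiated replicate 1 at 0.56 and turned to -0.13 after median-ratio scaling, and Adgre4 passed as lower after quantile normalization, at -1.63.

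Members of the MS4A family differed among themselves. Ms4a4a measured 16.4, 27.5 and 39.3 FPKM in irradiated replicates and 1.40, 1.36 and 1.46 FPKM in controls, a log2 change of 4.12 ± 0.31 (SE), and Ms4a6d rose by 3.72 ± 0.50. Ms4a1, the B cell antigen CD20, was at 0.066, 1.94 and 1.74 FPKM in irradiated replicates and 3.22, 2.29 and 3.08 FPKM in controls and did not pass, though it passed as lower after quantile normalization (-2.79) and without irradiated replicate 1 (-0.60). Of the LAMP proteins related to Cd68, Lamp1 and Lamp2, which line lysosomes in most cells, rose by 2.04 ± 0.25 and 1.48 ± 0.21. Cd163l1, the relative of Cd163 found on some T cells, was at 0.31 and did not pass, and it turned to -0.13 after median-ratio scaling and without irradiated replicate 1 and to -1.08 after quantile normalization. Mrc2, a collagen receptor of fibroblasts, rose by 2.82 ± 0.31. After quantile normalization Mrc2 was at 1.72 and Ms4a4a at 3.46.

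Of 17 core macrophage markers 15 rose, and the median log2 fold change was 2.84. C1qa, a chain of complement C1q that macrophages make, measured 257, 267 and 265 FPKM in irradiated replicates and 32.2, 39.0 and 38.8 FPKM in controls, and varied little between the irradiated libraries. Axl, a receptor for dying cells, rose by 2.73 ± 0.16 (SE), the lysosomal protease genes Lgmn and Ctss by 4.43 ± 0.29 and 2.76 ± 0.19, and Mertk, the receptor by which macrophages clear dying thymocytes, by 3.02 ± 0.22. The chemokine receptor gene Cx3cr1, at 1.00 to 2.12 FPKM in irradiated libraries and 0.867 to 1.07 FPKM in controls, did not pass, and its log2 change of 0.44 turned to -1.02 after quantile normalization.

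Of 17 markers of tissue-resident macrophages 16 rose, with a median of 3.32, but 10 did so after quantile normalization and 9 without control replicate 1. Cd5l, a protein secreted by resident macrophages, measured 26.4, 31.4 and 31.6 FPKM in irradiated replicates and 0.352, 0.761 and 0.944 FPKM in controls, a log2 change of 5.33 ± 0.32 (SE; adjusted p in limma = 5.75e-05). The scavenger receptor gene Stab1 rose by 4.44 ± 0.34, Gas6, which bridges dying cells to Axl and Mertk, by 3.32 ± 0.21, and Cbr2 by 2.58 ± 0.31. Timd4, the phosphatidylserine receptor of resident macrophages, was at 8.80, 4.47 and 4.22 FPKM in irradiated replicates and 2.72, 3.08 and 2.62 FPKM in controls. Its log2 fold change of 0.95 ± 0.30 passed (SE; adjusted p in limma = 0.0274) but was lost after median-ratio scaling (0.49), quantile normalization (0.15) and equal scaling of summed FPKM (0.85), and without any 1 of the controls, at limma adjusted p of 0.0602 to 0.0828. F13a1 was at -0.87 and did not pass, but passed as lower after median-ratio scaling (-1.33), after equal scaling of summed FPKM (-0.97) and without irradiated replicate 2 (-1.33). After quantile normalization Cd5l was at 4.57 and Stab1, which sinusoidal endothelium also expresses, at 3.77.

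Factors that work beside Maf in myeloid cells were read as a list. Of 18 myeloid transcription factors 13 rose, with a median of 2.44, and 1 fell, or 2 after median-ratio scaling or quantile normalization. Cebpb rose by 2.61 ± 0.18 (SE), Mitf by 2.42 ± 0.19 (1.78 after quantile normalization) and Nr1h3, a sterol sensor, by 2.79 ± 0.25. Spi1 itself measured 13, 28.2 and 36.2 FPKM in irradiated replicates and 2.37, 3.53 and 3.37 FPKM in controls, a log2 change of 2.92 ± 0.38. Runx1, which thymocytes also use, fell by 0.81 on the log2 scale, and Egr2 was at -0.70 and did not pass, except after median-ratio scaling and quantile normalization, at -1.15 and -1.94. Spic, a factor of iron-recycling macrophages, was at 9.33, 3.67 and 4.23 FPKM in irradiated replicates and 3.11, 3.79 and 3.85 FPKM in controls, which overlap, and its log2 fold change of 0.55 turned to -0.21 after quantile normalization.

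Around the receptor, 12 of 17 tested genes of the CSF1 receptor axis rose and 2 fell, with a median of 1.81. Over all genes tested, 42.4% were higher and 20.9% lower. The kinase gene Lyn rose by 2.66 ± 0.23 (SE), Csf2ra, a chain of the GM-CSF receptor, by 2.18 ± 0.23, and Tyrobp, the adaptor of myeloid receptors, by 1.65 ± 0.23. Trem2, a lipid receptor that signals through Tyrobp, measured 10.2, 6.26 and 4.91 FPKM in irradiated replicates and 0.307, 0.536 and 0.512 FPKM in controls, a log2 change of 3.67 that came to 2.60 after quantile normalization. Cbl, the ubiquitin ligase that removes the activated receptor from the surface, and Pik3cg fell, by 1.88 and 0.91 on the log2 scale, and thymocytes express both. The growth factor genes Csf2 and Csf3 stayed at 0.45 FPKM or less in every library and were not tested.

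**Figure D5:**
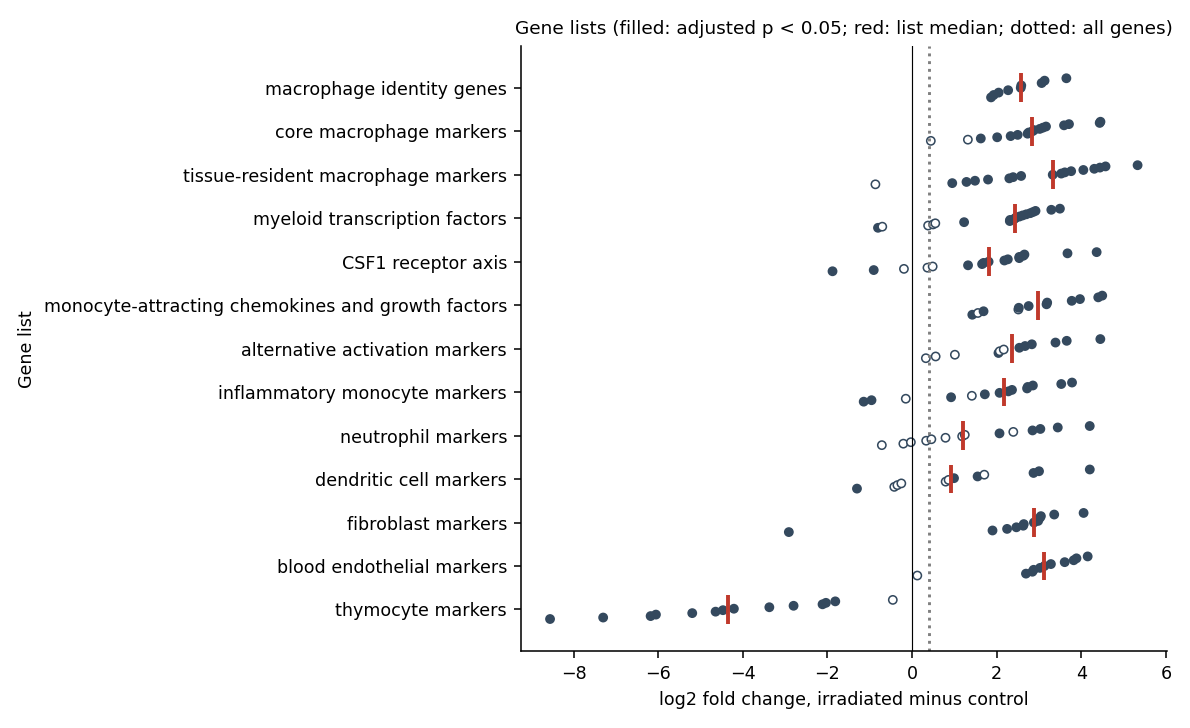
Log2 fold change of every tested gene of 13 lists, irradiated minus control, 1 point per gene, filled where the limma adjusted p is under 0.05, with the list median in red and the median of all genes (0.40) dotted. The lists of macrophage identity, core and resident macrophage, fibroblast and blood endothelial genes have medians of 2.57 to 3.32, neutrophil and dendritic cell lists 1.21 and 0.93, and thymocyte markers -4.34.

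Signals that draw monocytes were higher in the same libraries. Of 12 chemokines and growth factors 10 rose, with a median of 2.97, or 4 after quantile normalization. Ccl8 measured 46.5, 137 and 135 FPKM in irradiated replicates and 3.04, 5.80 and 3.97 FPKM in controls, a log2 change of 4.49 ± 0.45 (SE), and Cxcl12 and Cx3cl1 rose by 2.52 ± 0.23 and 3.18 ± 0.35, the second of them by 2.47 after quantile normalization. Ccl2, the main ligand of the monocyte receptor Ccr2, was at 1.5, 6.39 and 47.9 FPKM in irradiated replicates and 0.514, 1.03 and 0.840 FPKM in controls. The size of its change depended on irradiated replicate 3. The log2 change was 3.19 (limma adjusted p = 0.0375) with all libraries and 1.89 (limma adjusted p = 0.0459) without irradiated replicate 3. The call was lost without irradiated replicate 2 or any 1 of the controls, where the limma adjusted p ran from 0.0701 to 0.11. Quantile normalization (0.163), a pseudocount of 1 (0.0632), the fit with no abundance trend (0.0527) and that with no filter (0.0524) ended the call as well.

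Of 14 inflammatory monocyte markers 10 rose and 2 fell, with a median of 2.17, beside 42.4% higher and 20.9% lower over all genes tested. Without irradiated replicate 2, 6 rose, beside 5073 of 13600 genes, and 1 fell without control replicate 2 or 3. Ms4a6c measured 40.4, 67.4 and 104 FPKM in irradiated replicates and 9.09, 9.73 and 10.9 FPKM in controls. Ly6c2, the surface marker of these monocytes, was at 14.0, 137 and 76.3 FPKM in irradiated replicates and 7.39, 10.9 and 13.2 FPKM in controls, with replicate 1 just above the controls. Its log2 fold change of 2.36 (limma adjusted p = 0.0305) was 3.31 without irradiated replicate 1 and was lost without any 1 of the other libraries, at limma adjusted p of 0.0628 to 0.0983. Itgal and Nr4a1, which T cells also express, fell, by 1.14 and 0.96 on the log2 scale, and the call for Nr4a1 was lost without control replicate 2 or 3 (limma adjusted p = 0.0793 and 0.0922).

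Of 14 neutrophil markers 5 rose, a share below the 42.4% of all genes tested, with a median of 1.21, but 11 rose without irradiated replicate 1, and 3 rose without control replicate 1 or 3. The 5 were Ltf, Cxcr2, Retnlg, Mmp9 and Il1r2, with log2 fold changes from 2.07 for Il1r2 to 4.199 for Ltf. The calls for Ltf and Cxcr2 were lost without control replicate 1 or 3. That for Cxcr2 was also lost after quantile normalization and without irradiated replicate 3. S100a8 and S100a9, the main neutrophil proteins, did not pass. Both passed without irradiated replicate 1, at 1.33 and 1.69, and both turned negative without irradiated replicate 2, at -0.27 and -0.11. S100a8 also turned to -0.01 after median-ratio scaling. It was at 18.1, 169 and 75.7 FPKM in irradiated replicates and 25.6, 69.3 and 50.9 FPKM in controls, so replicate 1 was below every control. Lyz2, which neutrophils also make, was at 741, 626 and 677 FPKM in irradiated replicates 1, 2 and 3. The summed level of the neutrophil list was 64.8, 715 and 210 FPKM in irradiated replicates and 52.0 to 125 FPKM in controls, and its part in the value of Lyz2 was not tested.

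Of 12 alternative activation markers 7 rose, with a median of 2.35, beside 42.4% of all genes tested. Without irradiated replicate 1, 11 rose, beside 6730 of 13945 genes. After median-ratio scaling 6 rose, beside 4371 of 13894 genes, and after quantile normalization 6, beside 3501 of 14001. Msr1, a scavenger receptor gene, measured 10.1, 8.82 and 22.7 FPKM in irradiated replicates and 0.831, 0.789 and 1.15 FPKM in controls, a log2 change of 3.65 ± 0.37 (SE), and Clec10a and Pdcd1lg2 rose by 2.67 ± 0.32 and 2.04 ± 0.25. After quantile normalization these were 2.83 for Msr1, 1.74 for Clec10a and 0.98 for Pdcd1lg2. Il4ra and Mgl2 were at 0.33 and 1.01 and did not pass. Il4ra turned to -0.14 after median-ratio scaling, and Mgl2 passed without irradiated replicate 1, at 2.23. Of 9 tested genes on the alveolar macrophage list 9 rose, or 3 after quantile normalization and 5 without irradiated replicate 3. That list includes Mrc2, described above as a collagen receptor of fibroblasts. Siglecf, a marker of alveolar macrophages but not of them alone, was at 0.934, 0.735 and 1.47 FPKM in irradiated replicates and 0.120 to 0.214 FPKM in controls. It did not pass after quantile normalization (limma adjusted p = 0.553). The list summed to 67.9, 228 and 113 FPKM in irradiated replicates, most of replicate 2 coming from Cidec, which fat cells also express, at 190 FPKM. Of 12 dendritic cell markers 5 rose, a share near the 42.4% of all genes tested, and 1 fell. Their median was 0.93, and 2 fell after median-ratio scaling or without irradiated replicate 1 and 3 after quantile normalization. Itgax, shared with macrophages, rose by 3.00 ± 0.44, while Xcr1 and Clec9a, which define cross-presenting dendritic cells, were at -0.35 and 0.86 and did not pass. After quantile normalization Xcr1 passed as lower, at -1.88, and Clec9a turned to -0.52.

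Stromal and epithelial cells of the thymus were read beside the macrophage genes. The median log2 fold changes were 2.88 over 13 fibroblast markers, of which 12 rose and Thy1, which thymocytes also express, fell, 3.13 over 11 blood endothelial markers, of which 10 rose, and 2.10 over 10 medullary epithelial markers, all of which rose, or 8 after median-ratio scaling and 7 after quantile normalization. The median of the 9 macrophage identity genes, 2.57, lies between these values, and no difference between the lists was tested. Over the scalings, the median of the 9 genes was 2.11 after median-ratio scaling, beside -0.08 over all genes, and 2.21 after quantile normalization, beside -0.07.

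The genes whose profile over the 6 libraries lay closest to that of Csf1r were not macrophage identity genes. By the root mean square distance between centred log2(FPKM + 0.1) values, the nearest were Bicc1 (0.0727), Cyp4v3 (0.0784), Myorg (0.0922), Pdgfra (0.0955) and C2 (0.0973). C2, a complement gene, measured 18.6, 30.8 and 24.8 FPKM in irradiated replicates and 2.73, 2.79 and 3.61 FPKM in controls, and like Csf1r it was highest in replicate 2. Bicc1, which encodes an RNA-binding protein, measured 5.42, 7.89 and 6.11 FPKM in irradiated replicates and 0.599, 0.690 and 0.689 FPKM in controls. Of the other macrophage identity genes Maf was closest, at 0.303 and rank 431 of 14000, and Cd163 was farthest, at 0.676 and rank 2522. With 6 libraries in 2 groups, such a distance is a description of these libraries.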

How the data were processed

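Thymus RNA of 3 irradiated and 3 control libraries was compared, grouped by the labels. The deposited tables give FPKM, computed by the authors, per gene in the mRNA table (59179 transcript lines that repeat 1 value per gene) and per transcript in the lncRNA table (53001 transcripts, after 62 lines with no values). They also give the authors' log2 fold changes, p-values and adjusted p-values, and the submitters' processing notes name DESeq2 1.10.1. How reads were aligned, counted and assigned to strands is not given in the sources used here. Among transcripts found in GENCODE M21 (GRCm38), 99.79% have the same start and end.

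Values were tested as log2(FPKM + 0.1) for features averaging at least 0.5 FPKM, with limma 3.58.1 (R 4.3.3), a group-only model, an abundance trend and Benjamini-Hochberg adjustment over each table, threshold 0.05. Each table was tested alone. Noncoding transcripts were named by their parent gene's identifier. Fold changes understate low genes on this scale. Depth was inferred from the most frequent smallest product of FPKM and length in genes with 1 transcript; 42.5% to 51.6% of low values were whole multiples of it within 0.1, so fragments per gene were not recovered and no counting interval is given. The script was tested on simulated data.

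Members and lists were chosen with earlier results of these data known. All 9 members are named. In each other list the 4 genes with the smallest adjusted p and the 2 largest moves against the majority could be named, and others, such as Timd4, Spic, Spi1, Mertk, Ly6c2, S100a8 and Ccl2, were chosen after their values were seen. The 5 genes nearest to Csf1r were named by distance. A gene that the rule would name is not reported here. Replicate numbers pair no samples: same-numbered deviations correlated by -0.0433 to 0.0596.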

Additional observations from a re-analysis of the deposited data

How the results depend on the processing

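Direction and call of all 9 macrophage identity genes were kept in each of 15 alternatives: 2 other pseudocounts, 2 other filters, 3 other scalings, no abundance trend, the replicate block and 6 fits without 1 library. Leaving out 1 library gave log2 fold changes of 3.18 to 4.30 for Cd68, 2.78 to 3.48 for Csf1 and 1.68 to 2.11 for Cd163, and the highest adjusted p over all alternatives and genes was 0.00703 in limma (Cd163, without control replicate 1). Samples share only a number, so the replicate block is an alternative: with it, Csf1r kept 3.06 (limma adjusted p = 0.000924), and 5693 genes were higher and 2662 lower. The noncoding Cd68 transcript ran from 0.99 to 2.95 without 1 library. Over all genes, 5933 were higher and 2920 lower; quantile normalization gave 3501 and 4403 and median-ratio scaling 4371 and 4924, so higher genes made up 67.0%, 44.3% and 47.0% of calls. Calls in the lncRNA table numbered 6316, and 2846 to 8624 without 1 library. Relative to Csf1r, an alternative chosen after seeing the data, Csf1 changed sign (0.07, against -0.24 with a pseudocount of 1 and -0.28 to 0.27 without 1 library). The causes were not tested. Without counts, the precision of low genes such as Prox1 cannot be set.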
